A study of Homo sapiens with 12 samples.

Results

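Chromosome 19 ZNF genes are the human genes whose symbol is ZNF followed by a number and whose annotated chromosome is 19. The RefSeq annotation held 241 such symbols, and 222 of them had a probe on the array. For each gene the probe with the highest mean over the 12 arrays was taken, and the gene was kept where that probe had a detection p under 0.01 on at least 1 array. This left 168 genes of the 20020 genes measured, and 54 were not detected on any array. At the edge of this rule ZNF404 and ZNF98 were kept with a lowest detection p of 0.00909, while ZNF568 and ZNF699 fell outside with 0.01039.

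Gene expression was measured in human embryonic stem cells (hESCs) and 1 embryoid body (EB) sample on 12 Illumina HumanHT-12 version 4.0 bead arrays of 1 chip. The groups were 5 MEG3-OFF arrays of the NTU1 line (numbered 5 to 9), 2 arrays of the H9 line that are also labelled MEG3-OFF, 1 EB array labelled MEG3-ON, and 4 MEG3-ON arrays of the NTU1 line (numbered 1 to 4). MEG3 is a maternally expressed long non-coding RNA of the imprinted DLK1-DIO3 region, and NTU1 sublines were classed as ON or OFF by quantitative PCR of MEG3 and microRNAs of the same region. The labels give the neural differentiation capacity as better for MEG3-ON and worse for MEG3-OFF NTU1 cells, and for H9 and the EB as not detected. All stem cells were grown on mouse embryonic fibroblast feeders. The EB was differentiated from MEG3-ON cells, and neither the labels nor the methods give its day of differentiation. H9 differs from the NTU1 sublines in donor as well as in MEG3 state, so that line and state cannot be told apart in it. The methods name each NTU1 array as a subline of that 1 line and do not say how the sublines were derived. Nothing states that the 2 H9 arrays came from separate cultures, so their spread may be technical. The p-values measure only the spread between these samples. Groups lay in adjoining positions of the chip, and position and group cannot be told apart.

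Most of these genes encode proteins with tandem C2H2 zinc fingers, which bind DNA, behind a KRAB domain, which recruits the corepressor TRIM28 (KAP1) and with it histone methyltransferases such as SETDB1. The family grew by tandem duplication, which left large clusters of related genes along chromosome 19. Many members bind and silence retroelements, and they are known for their expression in pluripotent stem cells.

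The arrays were of similar depth, with median signals of 83.6 to 108 and with 16864 to 18796 probes detected per array. The lowest correlation between any 2 NTU1 arrays was 0.98. MEG3 itself matched the labels, with levels of 4.97 to 6.30 in MEG3-OFF cells (detected on 1 of 5 arrays), 5.10 to 5.15 in H9 (0 of 2), 13.8 in the EB and 13.1 to 14.1 in MEG3-ON cells (4 of 4). A level here is a background-corrected and quantile-normalized intensity on the log2 scale. The 5 pluripotency genes with a probe averaged 12.6 to 12.7 over MEG3-OFF arrays, 11.9 in H9, 9.82 in the EB and 12.4 to 12.6 over MEG3-ON arrays. NANOG had mean levels of 10.7 over MEG3-OFF arrays, 7.77 in H9 and 9.98 over MEG3-ON arrays and was not detected in the EB (4.95).

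Among the marker lists of other cell types, only the neural list separated MEG3-OFF from MEG3-ON arrays. The 6 neural genes (PAX6, SIX3, LHX2, RAX, FABP7 and CDH2) averaged 5.88 to 7.00 over MEG3-OFF arrays, 6.30 to 6.33 in H9, 11.7 in the EB and 7.80 to 8.68 over MEG3-ON arrays. All 6 were detected on every MEG3-ON array, while PAX6 and SIX3 were detected on none of the MEG3-OFF arrays. FABP7 went another way in H9, with a mean of 8.13 against 6.32 in MEG3-OFF and 7.71 in MEG3-ON cells. The 7 feeder and stroma genes averaged 6.98 to 7.18 over MEG3-OFF arrays, 7.00 to 7.09 in H9, 8.58 in the EB and 6.95 to 7.15 over MEG3-ON arrays. Of these, THY1 was lower in the EB (9.57) than its MEG3-ON mean (10.1), and DCN was not detected on any array. Of the 5 mesoderm genes with a probe 1 was detected in the EB, of the 6 endoderm genes 3 and of the 4 trophoblast genes 1, and on every MEG3-ON array 0, 1 and 0 of them. The part of these markers in the results below was not tested. In bulk samples, fewer cells of a type and less RNA per cell cannot be told apart.

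Of the 222 genes with a probe, 114 were detected on all 12 arrays, 42 on 2 to 11 arrays, 12 on a single array and 54 on none. The rule of the set leaves out the last 54, and the same counts over all genes were not examined. Of the 168 members, all 5 MEG3-OFF arrays detected 125, both H9 arrays 141, the EB 145 and all 4 MEG3-ON arrays 130. On a single array the count was 131 to 144 in MEG3-OFF cells, 145 and 150 in H9, 145 in the EB and 133 to 150 in MEG3-ON cells, so these ranges overlapped. The median SD between arrays of a group was 0.211 for the family in MEG3-OFF cells, 0.178 in H9 and 0.221 in MEG3-ON cells, beside 0.202, 0.174 and 0.190 over all detected genes.

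The first question was which of these genes followed the MEG3 state of NTU1 sublines. The test was passed by 8 genes, all of them lower in MEG3-OFF cells, namely ZNF560, ZNF439, ZNF562, ZNF135, ZNF493, ZNF443, ZNF573 and ZNF763. ZNF560 and ZNF439 were detected on all 4 MEG3-ON arrays and on none of the MEG3-OFF or H9 arrays, and were the only members with that pattern. A gene was called where limma gave an adjusted p under 0.05 after Benjamini-Hochberg adjustment over the 10770 genes with detection on 4 or more of the 9 NTU1 arrays. Among the 146 members tested 8 (5.48%) were called, beside 3.58% of all genes tested. These were 8 lower and 0 higher, beside 1.74% lower and 1.85% higher over all genes. At an unadjusted p under 0.05, 26 members (17.8%) were lower and 7 (4.79%) higher, beside 11% and 11.3% of all genes. ZNF560 and ZNF439 passed the filter only through the MEG3-ON arrays, and with no detection filter 6 members were called lower, without ZNF493 and ZNF562, and 1 higher of 168.

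ZNF560 (Entrez 147741) encodes a KRAB zinc finger protein. It had levels of 4.53, 4.52, 4.55, 4.76 and 4.45 on the 5 MEG3-OFF arrays, 4.57 and 4.56 in H9, 5.61 in the EB, and 6.94, 7.18, 6.81 and 5.97 on the 4 MEG3-ON arrays. The 2 sets of NTU1 arrays did not overlap, and the EB lay between them without being detected. The difference was -2.16 ± 0.20 (SE) on the log2 scale (adjusted p = 4.71e-05, limma), with means of 4.56 ± 0.12 in MEG3-OFF and 6.73 ± 0.53 in MEG3-ON cells (SD, n = 5 and 4). Since MEG3-OFF cells gave only a bound, ZNF560 was at least 1.85-fold lower in them. Such a bound sets the mean of the brighter group against, on each array of the dimmer group, the higher of the probe's own level and the lowest level of any detected probe, which was 5.64 to 5.93.

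ZNF439 (Entrez 90594) encodes another KRAB zinc finger protein. Its levels were 4.80, 4.92, 5.37, 4.88 and 5.02 on MEG3-OFF arrays, 4.78 and 5.18 in H9, 6.88 in the EB, and 6.43, 6.06, 6.63 and 6.74 on MEG3-ON arrays. The MEG3-OFF and H9 arrays all lay below the MEG3-ON arrays, and the EB lay above them. The difference of MEG3-OFF from MEG3-ON was -1.46 ± 0.16 (adjusted p = 1.93e-04, limma), at least 1.54-fold lower, with means of 5.00 ± 0.22 and 6.46 ± 0.30 (SD, n = 5 and 4). Leaving out each of the 9 arrays in turn, both genes kept their calls in 9 of 9 fits.

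The other called genes were detected on all 12 arrays, and their differences were smaller. ZNF562 had levels of 6.41, 6.56, 6.03, 6.34 and 6.60 in MEG3-OFF cells against 7.64, 7.54, 6.91 and 6.81 in MEG3-ON cells, 1.79-fold lower (-0.84 ± 0.19, adjusted p = 0.0289, limma). ZNF135 had 6.49, 6.92, 6.94, 7.01 and 6.60 against 7.53, 7.41, 7.40 and 7.34 in the same order of groups, 1.54-fold lower (-0.63 ± 0.13, adjusted p = 0.0198, limma). In both genes every MEG3-OFF array lay below every MEG3-ON array. ZNF493 had 7.36, 6.59, 6.80, 6.87 and 6.94 in MEG3-OFF cells and 7.50, 7.60, 7.46 and 7.54 in MEG3-ON cells, 1.53-fold lower (-0.61 ± 0.14, adjusted p = 0.0327, limma). ZNF573 had 7.59, 7.84, 7.81, 7.75 and 7.53 in MEG3-OFF cells and 8.38, 8.07, 8.15 and 8.40 in MEG3-ON cells, 1.46-fold lower (-0.55 ± 0.12, adjusted p = 0.0230, limma). Here too the groups did not overlap, although in ZNF493 the highest MEG3-OFF array came close to the MEG3-ON range. ZNF443 was 1.48-fold lower (-0.57 ± 0.13, adjusted p = 0.0313, limma) and ZNF763 was 1.40-fold lower (-0.48 ± 0.12, adjusted p = 0.0402, limma), with MEG3-OFF ranges of 6.23 to 6.69 and 6.28 to 6.80 and MEG3-ON ranges of 6.93 to 7.30 and 7.00 to 7.10.

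**Figure D1:**
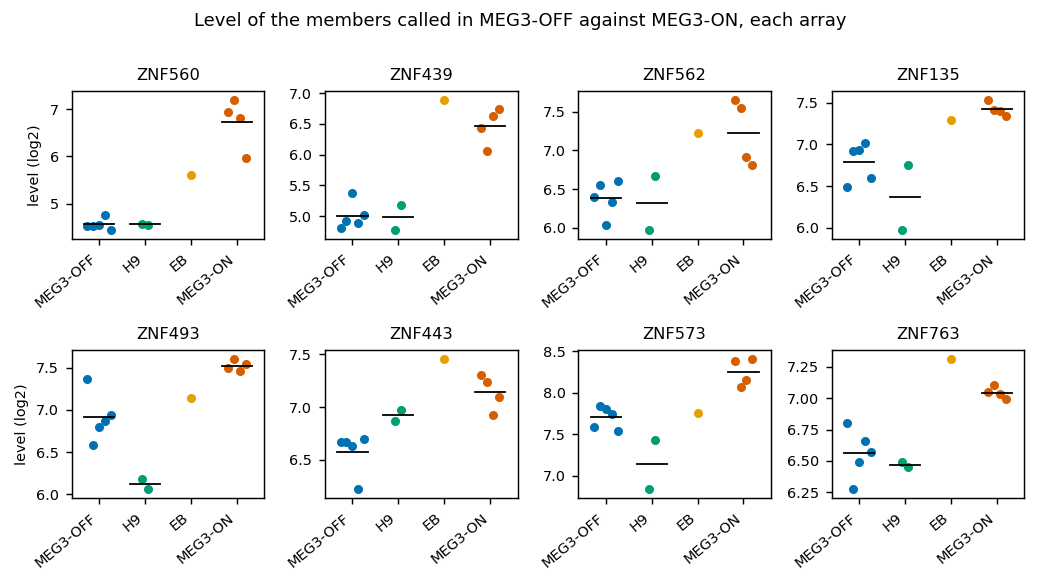
Level (log2) of the 8 genes called in MEG3-OFF against MEG3-ON NTU1 cells on each of the 12 arrays, by group, with 1 point per array and a black line at the mean of each group of more than 1 array; each panel has its own axis. ZNF560 and ZNF439 sit near the background in MEG3-OFF and H9 cells, and the EB lies below the MEG3-ON arrays in ZNF560 (5.61) and above them in ZNF439 (6.88).

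These 6 calls depended on single arrays. ZNF562 lost its call without MEG3-OFF 7, MEG3-ON 1 or MEG3-ON 2 (adjusted p up to 0.0857, limma), ZNF573 without MEG3-OFF 9, MEG3-ON 1 or MEG3-ON 4 (up to 0.0871) and ZNF135 without MEG3-OFF 9, MEG3-ON 1, MEG3-ON 2 or MEG3-ON 4 (up to 0.0645). ZNF443 was called in 3 of 9 fits with an array left out (up to 0.0931), and ZNF493 (up to 0.0974) and ZNF763 (up to 0.101) in 2. The number of members called lower was 13 without MEG3-OFF 5, 5 without MEG3-OFF 6, 4 without MEG3-OFF 7, 3 without MEG3-OFF 9, 2 without MEG3-ON 1, and 3 without MEG3-ON 2 or MEG3-ON 4. Under the methods' t-test the count was 8 at the threshold of the methods, without ZNF443, ZNF573 and ZNF763, and 0 after Benjamini-Hochberg adjustment.

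Over the whole family, a difference below 0 was more frequent than over all genes. It was found in 86 of 146 members (58.9%, beside 47.3% of all genes), and the median difference was -0.08, beside 0.02 over all genes. All MEG3-OFF arrays lay below all MEG3-ON arrays in 10 members (6.85%, beside 3.7% of all genes), the 8 called genes with ZNF627 and ZNF549, and above them in 3 (2.05%, beside 4.56%), namely ZNF57, ZNF844 and ZNF101. ZNF genes of other chromosomes had a median of -0.04 over 140 tested, with 60.7% below 0 and 1 called in each direction. The other genes of chromosome 19 had a median of 0.13 over 671 tested, with 27.7% below 0, 22 called higher and 7 lower. The median of the ZNF genes thus lay below that of their chromosome 19 neighbours.

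**Figure D2:**
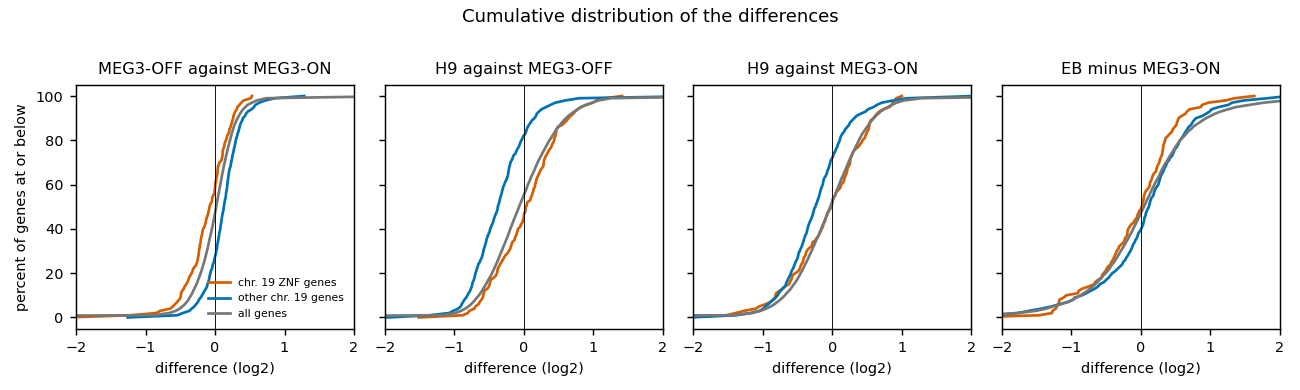
Cumulative percent of genes (vertical axis) at or below each difference (log2, horizontal axis, shown from -2 to 2) for chromosome 19 ZNF genes, other chromosome 19 genes and all genes tested in the 4 comparisons. In H9 against MEG3-OFF cells the ZNF genes, with a median of 0.03, lie right of the other chromosome 19 genes, with a median of -0.37.

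The called genes were then placed in gene order. Neighbouring ZNF genes with at most 5 other protein-coding genes between them were joined into 24 clusters. A pair of neighbouring clusters, with 9 and 18 of the 146 members tested, held 5 of the 8 called genes. The pair was chosen because it holds ZNF560 and ZNF439. Its other called genes, ZNF562, ZNF763 and ZNF443, lost their calls in some fits with an array left out, as given above. The cluster that begins with ZNF317 and ends with ZNF846 held 11 genes, of which 9 were members, and 8 of these 9 were below 0 (7 with median scaling) with a median of -0.38. In gene order the differences of MEG3-OFF from MEG3-ON were -0.01 for ZNF317, -0.49 for ZNF559, -0.91 for ZNF177, -0.24 for ZNF266, -2.16 for ZNF560, -0.38 for ZNF426, -0.14 for ZNF121, 0.17 for ZNF561 and -0.84 for ZNF562. Only ZNF560 and ZNF562 were called. ZNF177 did not pass (adjusted p = 0.0653, limma), with levels of 5.65, 5.66, 5.96, 6.85 and 5.68 in MEG3-OFF and 6.85, 6.76, 6.43 and 7.45 in MEG3-ON cells, and MEG3-OFF 8 lay within the MEG3-ON range.

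The next cluster, from ZNF653 to ZNF791, held 25 genes with 18 members. Of these, 15 were below 0 (16 with median scaling), the median was -0.15, and ZNF439, ZNF763 and ZNF443 were called. ZNF844 in the same cluster had a difference of 0.53 (adjusted p = 0.0668, limma) and ZNF878 of 0.35 (adjusted p = 0.279, limma). ZNF69 had -0.54 and ZNF433 -0.50, and neither passed, although ZNF433 did without MEG3-OFF 5 (adjusted p = 0.0259, limma). A second probe of ZNF69, detected on all arrays, passed with -0.81 (adjusted p = 0.00307, limma), so the call of this gene depends on the probe. In ZNF700 the 2 probes gave -0.19 and -0.43. The clusters were formed by gene order alone, and the relatedness of their members was not examined. Where neighbours are duplicates and share sequence, a probe may read a close relative as well as its own gene.

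**Figure D3:**
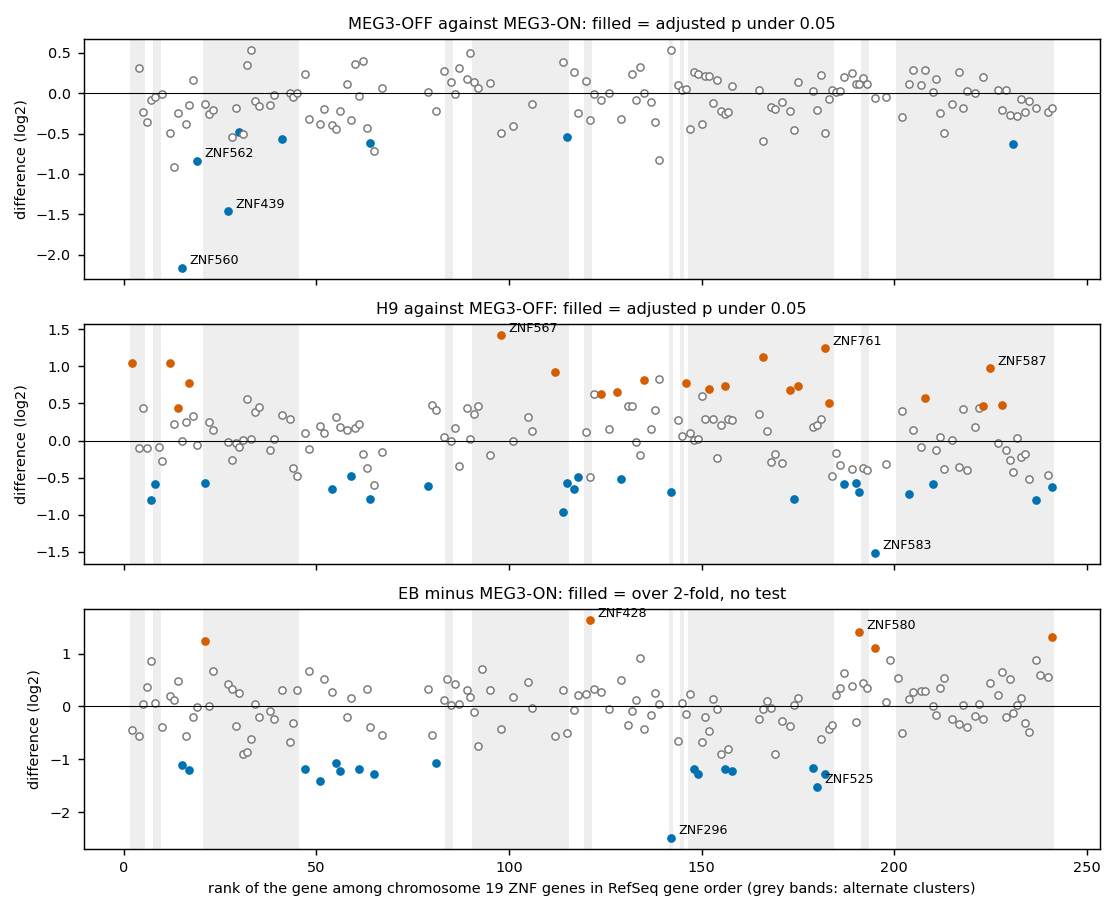
Difference (log2) of each chromosome 19 ZNF gene against its rank in the RefSeq gene order, in MEG3-OFF against MEG3-ON, H9 against MEG3-OFF and EB minus MEG3-ON; filled points were called (upper 2 panels) or over 2-fold (lower panel, no test), and grey bands mark alternate clusters. ZNF560 (-2.16), ZNF562 (-0.84) and ZNF439 (-1.46) lie close together in the upper panel, and ZNF296 (-2.49) lies alone in the lower one.

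Promoter sequence is shown for ZNF560 with ZNF561 and ZNF562 of the same cluster, because ZNF560 and ZNF562 were called and ZNF561 was not. ZNF426 and ZNF121, which lie between ZNF560 and ZNF561 and were not called either, are not shown. ZNF439 is shown because it shared the detection pattern of ZNF560. RefSeq (GRCh38.p14) gave 300 bases, from 250 before to 50 after the start, for 149 of the 168 members. ZNF560 lies at chr19:9498567-9498866, ZNF561 at chr19:9621183-9621482 and ZNF562 at chr19:9675051-9675350, all on the minus strand, and ZNF439 at chr19:11848476-11848775 on the plus strand. In the first 3 sequences capitals mark a 12-base run that they share, and in ZNF439 capitals mark CpG dinucleotides, of which it holds 12.
ZNF560: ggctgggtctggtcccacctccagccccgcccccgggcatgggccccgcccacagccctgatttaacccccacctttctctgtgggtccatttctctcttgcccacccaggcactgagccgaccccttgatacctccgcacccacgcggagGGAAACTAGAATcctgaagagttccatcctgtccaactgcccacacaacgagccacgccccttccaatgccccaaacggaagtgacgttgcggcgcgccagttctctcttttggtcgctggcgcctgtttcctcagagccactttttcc
ZNF561: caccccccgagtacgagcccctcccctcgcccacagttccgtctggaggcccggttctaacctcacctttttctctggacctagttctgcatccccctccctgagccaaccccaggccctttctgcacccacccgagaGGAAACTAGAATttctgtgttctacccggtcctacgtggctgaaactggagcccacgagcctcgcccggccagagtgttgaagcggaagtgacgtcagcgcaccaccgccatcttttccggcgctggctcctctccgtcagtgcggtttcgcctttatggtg
ZNF562: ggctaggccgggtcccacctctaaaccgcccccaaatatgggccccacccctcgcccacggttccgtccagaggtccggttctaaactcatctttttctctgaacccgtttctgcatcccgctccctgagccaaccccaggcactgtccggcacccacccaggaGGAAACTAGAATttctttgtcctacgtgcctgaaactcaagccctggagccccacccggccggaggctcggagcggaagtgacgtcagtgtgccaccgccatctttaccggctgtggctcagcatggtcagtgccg
ZNF439: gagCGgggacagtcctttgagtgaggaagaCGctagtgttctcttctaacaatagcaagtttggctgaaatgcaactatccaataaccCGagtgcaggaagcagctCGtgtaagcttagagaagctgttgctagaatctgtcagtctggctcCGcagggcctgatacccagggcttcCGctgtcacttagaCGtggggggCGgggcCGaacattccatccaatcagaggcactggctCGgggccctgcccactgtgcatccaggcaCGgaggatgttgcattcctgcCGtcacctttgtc

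The shared run, GGAAACTAGAAT, was chosen after the values of ZNF560 and ZNF562 were seen, and no longer run was common to their promoters. It was not the only one of its length, since the printed ZNF560, ZNF561 and ZNF562 sequences share another. That other run lies further along, is not marked, and its frequency was not examined. The marked run occurred on either strand in 3 of 149 member promoters (2.01%) and in 4 of 27305 promoters of the table (0.0146%), the fourth being the antisense gene ZNF561-AS1. ZNF561 carried it and was not called (0.17, adjusted p = 0.539, limma). Member promoters held a median of 20 CpG dinucleotides and 61% G and C, beside 14 and 58.3% over the table. On either strand, GGGCGG occurred in 70.5% of member promoters and 44.6% of all, CCAAT in 53.7% and 35.7%, TGACGT in 14.1% and 8.32%, and TATAAA in 2.68% and 12%. A match is a description of these letters and no evidence of a factor bound there.

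H9 cells were set against both NTU1 states, which asked whether the other line labelled MEG3-OFF resembled MEG3-OFF NTU1 cells in these genes. The 3 groups of undifferentiated cells were fitted together over the 11577 genes detected on at least 2 of the 11 arrays, and both H9 comparisons share the 2 H9 arrays. Against MEG3-OFF cells, 43 of 156 members (27.6%) were called, beside 31.5% of all genes tested, with 21 (13.5%) higher and 22 (14.1%) lower in H9, beside 13.2% and 18.3%. Against MEG3-ON cells, 49 (31.4%) were called, beside 29.1%, with 19 (12.2%) higher and 30 (19.2%) lower in H9, beside 12% and 17.1%. The difference was below 0 for 71 members (45.5%) against MEG3-OFF and for 81 (51.9%) against MEG3-ON cells, beside 55.2% and 52.5% of all genes. The shares called were near those of all genes, while the share below 0 against MEG3-OFF cells was smaller than over all genes. With median scaling between arrays in place of quantiles, 14 were called higher and 25 lower against MEG3-OFF, and 8 higher and 30 lower against MEG3-ON cells. The median difference of the members was 0.03 against MEG3-OFF and -0.01 against MEG3-ON cells, and the sign of the first turned with median scaling (-0.0031). The counts rested on H9 2, without which 2 members were called higher and 5 lower against MEG3-OFF, and 5 higher and 16 lower against MEG3-ON. Without H9 1, 14 members were called lower against MEG3-OFF cells.

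The other genes of chromosome 19 stood apart from the ZNF genes here. Of 723 tested, 284 (39.3%) were called lower and 16 (2.21%) higher in H9 than in MEG3-OFF cells, with 82.2% below 0 and a median of -0.37. Against MEG3-ON cells 27.2% were called lower, with a median of -0.24. ZNF genes of other chromosomes had medians of -0.09 against MEG3-OFF and -0.05 against MEG3-ON cells, with 34 of 158 called lower in each comparison.

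ZNF560 and ZNF439 were not detected in H9, as in MEG3-OFF cells. ZNF560 differed by -0.0012 ± 0.24 from MEG3-OFF cells (adjusted p = 0.997, limma) and by -2.16 ± 0.25 from MEG3-ON cells (adjusted p = 1.10e-04, limma, at least 1.92-fold lower). ZNF439 differed by -0.02 ± 0.20 (adjusted p = 0.947, limma) and by -1.48 ± 0.21 (adjusted p = 4.25e-04, limma, at least 1.60-fold lower). These values give no more than a bound on the level, since the probes were not above background in either line.

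Of the other 6 genes called between NTU1 states, 5 were also lower in H9 than in MEG3-ON cells: ZNF562 (-0.90, adjusted p = 0.0204), ZNF135 (-1.05, adjusted p = 0.00289), ZNF493 (-1.40, adjusted p = 2.18e-04), ZNF573 (-1.11, adjusted p = 9.57e-04) and ZNF763 (-0.57, adjusted p = 0.0124), all by limma. These comparisons share the MEG3-ON arrays with the one between NTU1 states. The call of ZNF562 was lost without H9 1 or MEG3-ON 2 (adjusted p up to 0.210, limma) and that of ZNF763 without H9 2 (0.0896). ZNF443 had levels of 6.87 and 6.97 in H9, and its difference of -0.22 from MEG3-ON cells did not pass (adjusted p = 0.322, limma). ZNF493 and ZNF573 also lay below MEG3-OFF cells, by -0.79 (adjusted p = 0.00587, limma) and -0.57 (adjusted p = 0.0237, limma), the first lost without H9 2 and the second without H9 1. For ZNF493 a second probe, detected on 2 arrays, gave 0.31 for H9 minus MEG3-ON, so its probes disagreed in sign.

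Among the stem cell arrays, ZNF583 was detected on every NTU1 array and on none of H9, and ZNF587 on both H9 arrays and on none of NTU1. ZNF583, a KRAB zinc finger gene, had levels of 4.71 and 5.74 in H9 (not detected), 6.52, 6.48, 6.90, 7.13 and 6.66 in MEG3-OFF cells, 7.90 in the EB and 6.77, 6.84, 6.44 and 7.13 in MEG3-ON cells. H9 lay below every NTU1 array. It was at least 1.94-fold lower than MEG3-OFF cells (-1.51 ± 0.26, adjusted p = 0.00192, limma) and at least 2.02-fold lower than MEG3-ON cells (-1.57 ± 0.27, adjusted p = 0.00137, limma), with a mean of 5.23 ± 0.73 in H9 against 6.74 ± 0.27 and 6.80 ± 0.28. ZNF587, whose product silences endogenous retroviruses of the HERV-K group together with that of its near-identical neighbour ZNF417, had 6.18 and 6.01 in H9 against 4.85, 5.13, 5.17, 5.13 and 5.32 in MEG3-OFF cells and 5.20, 5.21, 5.06 and 5.39 in MEG3-ON cells. Here H9 lay above every NTU1 stem cell array, and the EB had 5.66, where the probe was detected. ZNF587 was at least 1.19-fold higher than in MEG3-OFF cells (0.97 ± 0.15, adjusted p = 0.00105, limma) and at least 1.20-fold higher than in MEG3-ON cells (0.88 ± 0.15, adjusted p = 0.00151, limma), and it passed the filter only through the H9 arrays. Both genes kept both calls in 11 of 11 fits with an array left out. ZNF417 itself was at 6.22 and 6.24 in H9 and did not pass in either comparison (-0.04, adjusted p = 0.843, and 0.00, adjusted p = 0.999, limma).

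Among the other members that were higher in H9, ZNF567 had levels of 7.31 and 7.57 in H9 against 6.43, 6.24, 6.32, 5.70 and 5.42 in MEG3-OFF and 6.57, 6.13, 6.28 and 7.07 in MEG3-ON cells. It was higher than in MEG3-OFF cells (1.42 ± 0.28, adjusted p = 0.00382, limma) and than in MEG3-ON cells (0.93 ± 0.29, adjusted p = 0.0297, limma), without overlap. The probe was detected on 3 of the 5 MEG3-OFF arrays, so the first difference rests partly on levels below background. ZNF614 had 9.04 and 9.47 in H9 against 8.38 to 8.73 in MEG3-OFF and 8.21 to 8.58 in MEG3-ON cells, and passed in both comparisons (0.69, adjusted p = 0.00735, and 0.90, adjusted p = 0.00208, limma). ZNF761 (1.24, adjusted p = 0.00660), ZNF83 (1.13, adjusted p = 0.0116), ZNF555 (1.05, adjusted p = 0.00400), ZNF559 (1.04, adjusted p = 0.0349) and ZNF571 (0.92, adjusted p = 0.0154) passed against MEG3-OFF cells only, by limma, and ZNF878 against MEG3-ON cells only (0.91, adjusted p = 0.0115, limma). Whether the 2 differences of such a gene differ was not tested. Of the 5 MEG3-OFF arrays, ZNF761 and ZNF83 were detected on 2, ZNF571 on 1 and ZNF555 on 0, and ZNF878 was detected on 2 of the 4 MEG3-ON arrays, so these differences rest on levels below background as well. ZNF555 was at least 1.37-fold higher in H9 than in MEG3-OFF cells. Against MEG3-ON cells the calls of ZNF567 and ZNF878 were lost without H9 1 or H9 2 (adjusted p up to 0.200 and 0.0738, limma), that of ZNF567 also without MEG3-ON 2 or MEG3-ON 3, while ZNF614 kept its call in 11 of 11 fits. Without H9 2, these 5 genes with ZNF567 and ZNF614 lost their calls against MEG3-OFF cells (adjusted p between 0.0655 and 0.249, limma). ZNF558 passed against MEG3-ON cells (1.00, adjusted p = 0.0461, limma) on a single array, with levels of 6.43 and 4.54 in H9, and was called in 2 of 11 fits with an array left out.

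Members lower in H9 in both comparisons included ZNF160, ZNF486, ZNF837 and ZNF446. ZNF160, a gene of the cluster that holds ZNF761, had 6.39 and 6.43 in H9 against 6.98 to 7.42 in MEG3-OFF and 7.42 to 8.13 in MEG3-ON cells (-0.78, adjusted p = 0.0105, and -1.24, adjusted p = 0.00111, limma). ZNF486 had 12.72 and 12.43 in H9 against 12.94 to 13.51 in MEG3-OFF and 13.44 to 14.01 in MEG3-ON cells (-0.65, adjusted p = 0.0199, and -1.05, adjusted p = 0.00219, limma). ZNF837 differed by -0.81 (adjusted p = 0.00382, limma) and -0.99 (adjusted p = 0.00128, limma) and ZNF446 by -0.63 (adjusted p = 0.00622, limma) and -0.82 (adjusted p = 0.00180, limma). A second probe of ZNF160, also detected on all 12 arrays, gave -0.40 for H9 minus MEG3-ON. All 4 kept their calls against MEG3-ON cells in 11 of 11 fits with an array left out, and lost those against MEG3-OFF cells without H9 2 (adjusted p between 0.0513 and 0.218, limma). ZNF429 was called lower than in MEG3-ON cells only (-1.32, adjusted p = 0.0101, limma, at least 1.67-fold lower), and lost the call without H9 2 (0.0867).

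The clusters did not move as one in H9. In the cluster from ZNF577 to ZNF331, which held 38 genes with 28 members, 21 of the 27 tested were above 0 against MEG3-OFF cells (19 with median scaling) with a median of 0.27. The called ones were 7 higher (ZNF614, ZNF836, ZNF83, ZNF816, ZNF415, ZNF761 and ZNF813) and 1 lower (ZNF160). Over all genes tested, 5184 of 11577 were above 0, with 13.2% called higher and 18.3% lower. In the cluster from ZNF283 to ZNF180, 10 of 13 were above 0, and ZNF45, ZNF222 and ZNF227 were called higher and ZNF223 lower. In the cluster from ZNF628 to ZNF580 all 6 members were below 0 with a median of -0.48, and ZNF524 (-0.59, adjusted p = 0.0111), ZNF581 (-0.57, adjusted p = 0.0460) and ZNF580 (-0.70, adjusted p = 0.0215) were called lower by limma. The same 6 genes were below 0 against MEG3-ON cells with none called, and above 0 in MEG3-OFF against MEG3-ON cells (5 of 6 with median scaling), also with none called. The other genes of chromosome 19 mostly had the same directions. Of them, 82.2% were below 0 in H9 against MEG3-OFF, 72.1% in H9 against MEG3-ON and 27.7% in MEG3-OFF against MEG3-ON cells. The cluster from ZNF101 to ZNF254 held 4 genes called lower than in MEG3-OFF cells, namely ZNF486, ZNF430, ZNF493 and ZNF91.

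The EB, a differentiated reference, was set against MEG3-ON cells as a description, since 1 array allows no test. The description covers 157 members whose probe was above background in the EB or on 2 or more MEG3-ON arrays. Of these, 5 (3.18%) were over 2-fold higher and 17 (10.8%) over 2-fold lower in the EB, beside 9.08% and 7.75% of 11755 genes. Of the 17 lower members, 6 were not detected in the EB, and with bounds in their place 14 were over 2-fold lower. The EB lay above all 4 MEG3-ON arrays in 41 members (26.1%, beside 38.1%) and below all of them in 59 (37.6%, beside 34.4%). The median difference was 0.01, beside 0.04 over all genes, 0.13 over ZNF genes of other chromosomes and 0.11 over the other genes of chromosome 19. Without each MEG3-ON array in turn, 15 to 18 members were over 2-fold lower and 4 to 6 higher. At a larger offset of 50, which shrinks the differences of dim probes, 7 of 157 were lower, beside 614 of 11755 genes. In the authors' normalized values 4 of 157 were lower, beside 478 of 11755 genes. In neither setting was the share of lower members above that of all genes.

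ZNF296 had the largest difference. Its mouse counterpart is known from pluripotent cells and reprogramming. ZNF296 had a level of 8.01 in the EB against 10.43, 10.83, 10.18 and 10.54 on MEG3-ON arrays, 5.60-fold lower (-2.49). Its levels in stem cells were 10.77 to 11.43 in MEG3-OFF cells and 10.38 and 10.28 in H9, so every stem cell array lay far above the EB. MEG3-OFF did not differ from MEG3-ON cells past the threshold (0.53, adjusted p = 0.0843, limma), and H9 was lower than MEG3-OFF cells (-0.69, adjusted p = 0.0171, limma), a call that was lost without H9 1 or H9 2.

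Other members lower in the EB lay mostly in 2 of the large clusters. The cluster from ZNF101 to ZNF254 (37 genes, 22 members) held 7 of 18 over 2-fold lower, and the cluster from ZNF577 to ZNF331 held 7 of 27, together 14 of 45, while all other clusters held 3 of 112. Their medians were -0.46 and -0.42, and 22 of 27 in the second were below 0 (20 with median scaling). With bounds for the members not detected in the EB the counts were 5 and 6, at an offset of 50 they were 1 and 4, and in the authors' normalized values 1 and 2. ZNF93, whose product silences LINE-1 elements, had 7.13 in the EB against 8.58, 8.78, 8.26 and 8.57 on MEG3-ON arrays, 2.68-fold lower (-1.42), and its other probe gave -1.49. ZNF613 (-1.28), ZNF480 (-1.23), ZNF626 (-1.22) and ZNF649 (-1.19) were detected in the EB at lower levels. For ZNF626, 4 other probes gave -0.33, -0.68, -0.68 and -0.93, so that only the chosen one was over 2-fold lower. ZNF525 (5.25 in the EB against 6.45 to 7.07), ZNF429 (5.25 against 5.97 to 6.98) and ZNF761 (5.17 against 6.20 to 6.79) were not detected in it, and were at least 2.20-fold, 1.85-fold and 1.74-fold lower. ZNF560 was at least 2.13-fold lower in the EB, with 5.61 against 5.97 to 7.18 on MEG3-ON arrays, and ZNF121 of the same cluster was lower by -1.21. The EB thus carried MEG3 at the MEG3-ON level and ZNF560 below it.

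The 5 members over 2-fold higher in the EB were led by ZNF428, which had 13.14 in the EB against 11.28, 11.52, 11.62 and 11.63 on MEG3-ON arrays, 3.10-fold higher (1.63). ZNF580 (1.41), ZNF446 (1.31), ZNF653 (1.24) and ZNF583 (1.10) followed, with EB levels of 9.21, 8.14, 9.18 and 7.90, each above every MEG3-ON array. A second probe of ZNF580, detected on 9 arrays, gave 0.29, so its place among these 5 rests on the chosen probe. The next in order were ZNF226 (0.91), ZNF71 (0.88) and ZNF837 (0.88). The EB alone detected 5 members, which were ZNF264 (6.14), ZNF536 (6.10), ZNF566 (5.86), ZNF584 (5.83) and ZNF71 (5.81). They entered the set only through that array (detection p of 0.0039 to 0.00649), so the pattern follows from the rule of the set. Further members entered through 1 other array, such as ZNF180 through H9 2 and ZNF570 through MEG3-ON 1. Other probes gave 0.05 for ZNF536 and -0.06 for ZNF566. ZNF536 is known as a brain-enriched factor that restrains neuronal differentiation. The levels of these 5 members lay near the lowest level of a detected probe. In the EB the neural (11.7), stroma (8.58), mesoderm (6.37) and endoderm (6.33) lists averaged above every MEG3-ON array, and the pluripotency list (9.82) below. Of the mesoderm list only HAND1 was detected in the EB, and of the 6 endoderm genes 3 were. The part of these lists in the 5 detections was not tested.

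Members known for retroelements or imprints were examined as a list of 10 genes. Of these, ZNF534 and ZNF808 were not detected, and of the 7 tested 0 were called in MEG3-OFF against MEG3-ON cells by limma, beside 3.58% of all genes, with 0 at an unadjusted p under 0.05 and a median of 0.03. ZNF91, whose product silences SVA elements, had 7.22 and 7.30 in H9 against 7.86, 8.10, 8.04, 7.97 and 7.40 in MEG3-OFF cells and 7.93, 8.13, 7.93 and 7.44 in MEG3-ON cells. H9 lay below both NTU1 groups (-0.61, adjusted p = 0.0363, and -0.59, adjusted p = 0.0493, limma), and with an array left out the first call was kept in 6 of 11 fits and the second in 2. ZNF765, which binds LINE-1 elements, was higher in H9 than in MEG3-ON cells (0.52, adjusted p = 0.0242, limma), a call lost without H9 1 or MEG3-ON 2 (adjusted p up to 0.208) and with median scaling. ZNF274, which marks the 3′ ends of ZNF genes with H3K9me3, and ZNF331, an imprinted gene, passed in no comparison with the chosen probes, but other probes of both differed. A ZNF274 probe detected on 6 arrays was lower in MEG3-OFF than in MEG3-ON cells (-0.56, adjusted p = 0.0245, limma, where the chosen probe gave -0.08) and in H9 than in MEG3-ON cells (-0.94, adjusted p = 0.00115, limma, where the chosen probe gave -0.31), while its remaining probe, detected on all 12 arrays, gave -0.08 and -0.20. A second probe of ZNF331 gave -0.67 in MEG3-OFF against MEG3-ON cells where the chosen probe gave 0.03. In the EB, ZNF93 and ZNF649 were over 2-fold lower, as given above.

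**Figure D4:**
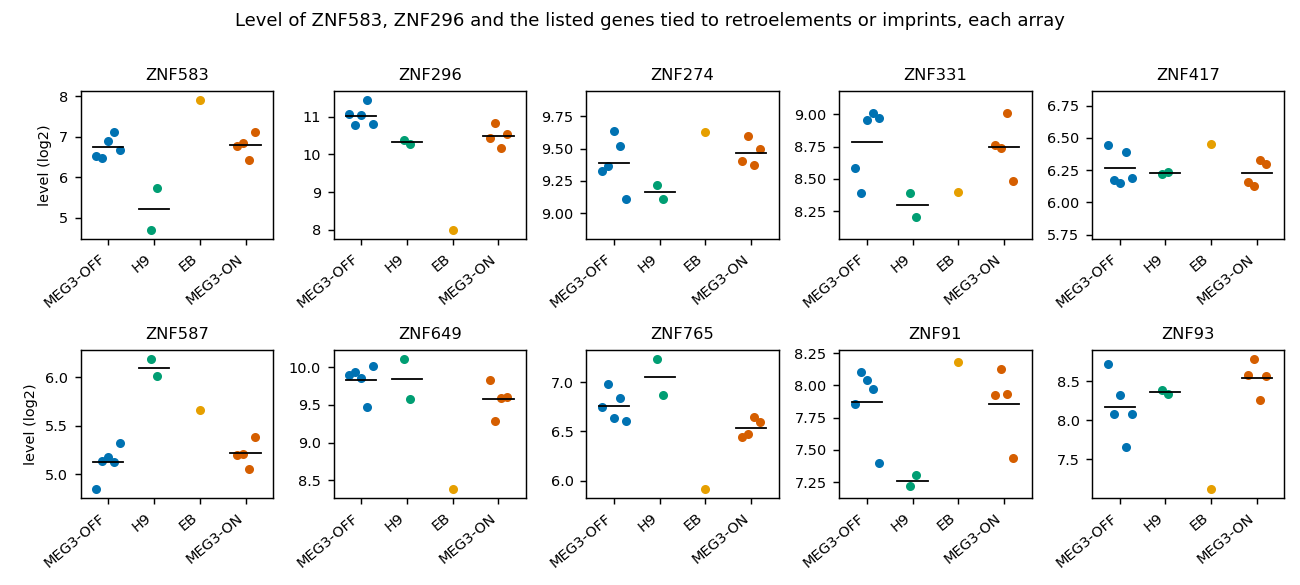
Level (log2) of ZNF583, ZNF296 and the 8 detected genes of the retroelement and imprint list on each of the 12 arrays, by group, with 1 point per array and a black line at the mean of each group of more than 1 array; each panel has its own axis. ZNF583 is low in H9 (4.71 and 5.74), ZNF587 is high in H9 (6.18 and 6.01), and ZNF296 and ZNF93 are low in the EB (8.01 and 7.13).

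The partners through which KRAB zinc finger proteins act were examined as a list of 36 corepressor and heterochromatin genes, of which 33 had a probe. In MEG3-OFF against MEG3-ON cells 0 of 29 tested were called by limma, beside 3.58% of all genes. At an unadjusted p under 0.05, 2 were higher and 3 lower, beside 11.3% and 11% of all genes. TRIM28 had means of 11.5 in MEG3-OFF and 11.2 in MEG3-ON cells (0.25 ± 0.11, adjusted p = 0.200, limma), and SETDB1 of 8.38 and 8.64 (-0.27 ± 0.13, adjusted p = 0.246, limma). In H9, 3 of 30 were called higher and 9 lower against MEG3-OFF, and 3 higher and 10 lower against MEG3-ON cells. The shares called lower were 30% and 33.3%, beside 18.3% and 17.1% of all genes, and those called higher 10% in each, beside 13.2% and 12%. TRIM28, itself a gene of chromosome 19, was among the lower ones, with a mean of 10.6 in H9 (-0.82, adjusted p = 0.00630, and -0.57, adjusted p = 0.0380, limma). In the EB, 1 of 29 (3.45%) was over 2-fold higher and 5 (17.2%) over 2-fold lower, beside 9.08% and 7.75% of all genes. DNMT3B, the de novo DNA methyltransferase typical of pluripotent cells, was lower by -2.95, and RESF1 and TRIM24 were over 2-fold lower. CHD3 and DNMT3A were too, but neither was detected in the EB, so their differences rest on levels below background. UHRF1, which guides maintenance methylation, was over 2-fold higher (1.13).

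The other C2H2 genes of chromosome 19, without a ZNF symbol, gave a list of 23, of which 9 were tested between NTU1 states. KLF2 was called higher in MEG3-OFF cells, with a mean of 7.51 against 6.49 in MEG3-ON cells (1.02 ± 0.16, adjusted p = 0.00378, limma). Thus 1 (11.1%) was called higher and 0 lower, beside 1.85% and 1.74% of all genes. In H9, 0 of 10 were higher and 4 (40%, beside 18.3% of all genes) lower than in MEG3-OFF cells, and 1 was higher and 2 (20%, beside 17.1%) lower than in MEG3-ON cells. In the EB, 0 of 10 were over 2-fold in either direction, beside 9.08% higher and 7.75% lower over all genes. Most of the 10 were nevertheless higher in the EB, with 20% below 0 and a median difference of 0.54, beside 47.1% and 0.04 over all genes.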

How the data were processed

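The chip carried 12 arrays with 47230 probes. The deposited non-normalized table holds raw bead intensities with a detection p-value per array, as the authors exported it. The deposited normalized table holds intensities on a linear scale that the authors had log-transformed and quantile-normalized in Partek, per their methods, and it served as an alternative. All 12 pairs of columns were mapped to samples by their titles (0 unmapped columns). Probe symbols came from GEO's platform annotation and were updated through RefSeq, where 30113 probes had 1 symbol, 8 had several and 17109 had none, and 30074 of the 30113 matched a RefSeq gene.

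Intensities were corrected and normalized with neqc of limma 3.58.1 (offset 16) in R 4.3.3, which gives log2 values. For each of the 20020 genes the probe with the highest mean was kept, and 50 of the 168 members had several probes. Groups were compared with lmFit and eBayes of limma and Benjamini-Hochberg adjustment over all genes tested. The EB has 1 array, and its over 2-fold differences carry no test. On simulated data the NTU1 comparison (10770 genes) recovered 35.8% of 1.41-fold and 88.1% of 2-fold changes, H9 against MEG3-OFF (11577 genes) 13.4% and 74.2%, and H9 against MEG3-ON (11577 genes) 13.4% and 72.1%. The number of arrays limits the precision.

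The members, lists, markers and clusters were chosen with earlier results of these data known. Genes are named by these rules: all members called between NTU1 states, the 10 largest called in each direction in H9, the 8 largest in each direction in the EB, members detected in 1 group only, the retroelement list, and the clusters of ZNF560 and ZNF439. Other genes named in counts were chosen after their values were seen. Symbols with a suffix letter (9 genes) were left out. Alternatives covered the authors' normalized values, median scaling, an offset of 50, the arrays normalized, the detection filter, the probe rule, the eBayes settings, the methods' t-test, the 3-group fit and leaving out each array. Promoters came from RefSeq (149 of 168 members matched), and protein sequences were not used here. Figures were drawn with matplotlib 3.10.9 in Python 3.11.15.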

Additional observations from a re-analysis of the deposited data

Results flagged for a closer look

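In 6 of the 128 groups examined (64 named genes in MEG3-OFF and MEG3-ON cells), 1 array stood apart from the others of its group by Dixon's criterion, which chance meets in about 1 in 20 groups. In MEG3-OFF cells, ZNF443 was lowest on MEG3-OFF 8, at 6.23 beside 6.63 to 6.69 on the other arrays. ZNF613 was also lowest on MEG3-OFF 8, at 9.26 beside 9.71 to 9.78. ZNF177 was highest on that array, at 6.85 beside 5.65 to 5.96. ZNF536 was highest on MEG3-OFF 7, at 5.63 beside 5.25 to 5.36, without being detected there. In MEG3-ON cells, ZNF653 was highest on MEG3-ON 3, at 8.25 beside 7.83 to 7.85, and ZNF121 was lowest on MEG3-ON 3, at 7.89 beside 8.28 to 8.36.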

How the results depend on the processing

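Between NTU1 states, 1 member was called higher with no detection filter and 1 with trend and robust settings, and the methods' t-test with Benjamini-Hochberg adjustment called 0 lower. With an array left out, 0 to 1 were called higher and 2 to 13 lower. In H9 against MEG3-OFF cells, leaving out an array gave 2 to 25 higher, 5 to 24 lower and a median of -0.024 to 0.11, and ZNF558 ranged from -1.04 without H9 1 to 0.86 without H9 2. In H9 against MEG3-ON cells, 8 were called higher with median scaling (median -0.083) and 11 with no detection filter, and leaving out an array gave 5 to 21 higher, 16 to 30 lower and a median of -0.068 to 0.071. Numbers 1 and 2 name arrays in both H9 and MEG3-ON NTU1 cells but nothing states that they mark a shared culture, and across 11577 genes the deviations of same-numbered arrays from their group means correlated at -0.159. With that replicate block, on these 4 arrays alone and chosen after the data were seen, 10 members were called higher and 19 lower. For the other comparisons no paired analysis was possible because their groups share fewer than 2 numbers. In the EB, the authors' normalized values gave 3 of 157 members over 2-fold higher and 4 lower, beside 622 and 478 of 11755 genes. An offset of 50 gave 7 lower, beside 614 of 11755 genes. Median scaling of the EB, added after the data were seen, gave 5 higher and 17 lower, as reported. Over all alternatives, values of single genes kept their direction and side of the threshold in 1042 cases between NTU1 states, lost the call in 45 and gained one in 10. The counts were 1062, 36 and 17 in H9 against MEG3-OFF, with 1 reversed (ZNF558), and 1085, 73 and 20 in H9 against MEG3-ON cells. In the EB, 110 values of single genes moved by less than the spread between replicates and 18 by more. The causes were not tested. Significance analysis of microarrays, which the methods also name, was not run. Probes near the background, such as those of ZNF560, ZNF439 and ZNF587, give only bounds where they were not detected.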
